A study of Mus musculus with 144 samples.

Results

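C1qa, C1qb and C1qc encode the A, B and C chains of C1q, the recognition protein that opens the classical complement pathway. The 3 genes were taken by name from a table of 55364 genes, and their levels were described in single microglia of the mouse retina. The series asked how retinal microglia differ after optic nerve crush, which injures the axons of ganglion cells. Each sample was 1 well into which a single green fluorescent cell had been sorted by flow cytometry, and the 144 wells lay on 3 plates of 48. All cells came from retinas of Iba1-EGFP mice on a C57BL/6 background, aged 20 to 22 months. The groups were 54 wells from uncrushed retina with no treatment, 36 wells from day 2 after nerve crush and 54 wells from day 4. The 18 day 4 wells of plate 1 carried a day 2 treatment tag, and the title decided their group.

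Since the labels name no animals, a group counts as 1 sample, and all values are given with no test. On all 3 plates a group took the same rows, so group and row cannot be told apart. The Iba1 promoter is also active in macrophages outside the nervous tissue and in blood-derived macrophages, so green fluorescence alone does not mark microglia.

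C1q is built from chains A, B and C, which wind around each other through a collagen-like stretch and end in globular heads that bind antibody complexes and other targets. Together with the proteases C1r and C1s it starts the cleavage of C4 and C2, which leads to C3 deposition. In the brain and retina microglia are the main known source of C1q, where it is known for tagging synapses for removal. In mouse brain, C1q secreted by microglia with TNF and IL-1α is known to induce a reactive state of astrocytes.

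The 3 genes lie side by side on the minus strand of chromosome 4 in GRCm38.p6, the build of the deposited table, within 18675 bases. C1qb (ENSMUSG00000036905) spans 136880129 to 136886187, C1qc (ENSMUSG00000036896) spans 136889804 to 136893065 and C1qa (ENSMUSG00000036887) spans 136895917 to 136898803. The gaps between them are 3616 bases from C1qb to C1qc and 2851 bases from C1qc to C1qa. No other gene of the table overlaps them. The nearest protein-coding neighbours, the ephrin receptor genes Ephb2 at 44140 bases and Epha8 at 30615 bases, were found at 10 or more reads in 0 of 88 deep wells (defined below as wells of 50000 or more reads), which allows a share of up to 4.11%.

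The coding sequences show what the chains share, the collagen-like repeat. In the GENCODE transcripts the coding parts are 735 bases in C1qa, 759 in C1qb and 738 in C1qc, with 3 exons each. Runs of at least 3 GGN codons, which encode glycine, spaced 3 codons apart hold 26 repeats in C1qa, 29 in C1qb and 30 in C1qc. They lie in 2 runs in C1qa, 1 run in C1qb and 3 runs in C1qc, so C1qb alone has an unbroken repeat by this definition. The longest run of each gene is shown with the GGN codons in capitals. Those of C1qa (chr4:136896565-136896708) and C1qc (chr4:136890439-136890582) each lie in 1 exon and hold 16 repeats, and that of C1qb (chr4:136880700-136882217) crosses 1 intron of 1257 bases and holds 29.
C1qa: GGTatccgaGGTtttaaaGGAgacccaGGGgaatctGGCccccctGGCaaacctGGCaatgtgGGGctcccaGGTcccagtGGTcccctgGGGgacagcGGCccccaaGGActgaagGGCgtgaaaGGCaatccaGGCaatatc
C1qb: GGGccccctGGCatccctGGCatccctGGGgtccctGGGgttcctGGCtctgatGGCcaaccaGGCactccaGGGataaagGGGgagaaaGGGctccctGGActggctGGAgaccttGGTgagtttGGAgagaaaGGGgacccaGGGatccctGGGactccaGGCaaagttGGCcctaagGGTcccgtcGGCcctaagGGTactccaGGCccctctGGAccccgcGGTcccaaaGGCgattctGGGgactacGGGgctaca
C1qc: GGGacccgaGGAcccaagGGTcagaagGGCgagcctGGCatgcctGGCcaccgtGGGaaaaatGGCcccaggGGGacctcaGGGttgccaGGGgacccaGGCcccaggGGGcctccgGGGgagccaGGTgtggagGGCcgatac

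RefSeq promoter windows on GRCm38.p6 were matched for C1qb and C1qc, and are shown because the chains varied together over wells. Capitals mark the letters AGGAAG, the core of many sites of ETS factors such as PU.1, and TGCTGA, part of the site of Maf factors, on either strand. The C1qb window (chr4:136886201-136886450, minus strand) held 1 match of AGGAAG and 1 of TGCTGA. The C1qc window, cut to the part outside the annotated exon (chr4:136893066-136893164, minus strand), held 2 matches of AGGAAG and 0 of TGCTGA. In windows of the same length and place, AGGAAG stood in 29.5% of 32851 promoters at 250 bases and in 12.01% at 99 bases, and TGCTGA in 16.1% and 6.43%. TATAAA was found in neither window, and stood in 12.4% of promoters at 250 bases and in 5.20% at 99 bases. The C1qc window is the part far from the RefSeq start, so TATAAA near that start could not be found. A match is only a run of letters and says nothing of binding.
C1qb: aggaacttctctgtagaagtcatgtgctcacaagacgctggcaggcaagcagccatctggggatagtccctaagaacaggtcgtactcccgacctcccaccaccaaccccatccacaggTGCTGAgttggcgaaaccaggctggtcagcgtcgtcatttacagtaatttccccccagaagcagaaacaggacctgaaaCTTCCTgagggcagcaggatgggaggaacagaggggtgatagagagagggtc
C1qc: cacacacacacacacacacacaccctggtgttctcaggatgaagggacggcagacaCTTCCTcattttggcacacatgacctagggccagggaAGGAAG

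Depth split the wells in 2. Reads recovered from the deposited values numbered 60079 to 8065036 in 88 deep wells (39 uncrushed, 25 day 2 and 24 day 4) and 643 to 14205 in 56 shallow wells (15, 11 and 30 in the same order of groups). On plate 3, 2 of 18 day 4 wells were deep. Genes with any read numbered a median of 3161 in uncrushed, 3777 in day 2 and 4992 in day 4 deep wells. At 10 or more reads, at least 3 of 11 microglia markers were found in 30 of 39 uncrushed, 19 of 25 day 2 and 21 of 24 day 4 deep wells, so the markers did not bear out the label in every well. Few markers could also go with few genes found, as in the well C2 of uncrushed plate 2, which had 1415 genes and 1 microglia marker beside 30689 FPKM of C1qb. At least 3 of 12 neutrophil markers were found in 3 uncrushed, 8 day 2 and 6 day 4 deep wells, and the median summed level of that list was 11.6, 51.8 and 167 reads per 1000000 assigned reads, with ranges from 0 to 111740, 96602 and 73306. Ngp, Camp and Ltf of that list reached 10 reads in 0 deep wells. At least 3 of 13 rod markers were found in 4, 1 and 1 deep wells, and at least 3 of 8 markers of other macrophages or monocytes in 1 uncrushed deep well. The 67 deep wells in which neither neutrophil nor rod markers reached 3 (32, 17 and 18) are given apart as wells with few foreign markers. Fragments carry no molecular identifiers. All intervals are for numbers of wells, treat the wells as independent draws and so cover counting error only.

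C1q transcripts were among the most abundant of the deep wells. C1qb ranked at a median of 8 among all genes by FPKM in uncrushed wells, 8 in day 2 wells and 7.5 in day 4 wells, and it was among the first 10 genes in 26 of 39, 16 of 25 and 15 of 24 wells. C1qa ranked at a median of 28, 45 and 24, and C1qc at 41, 21 and 19. The 3 chains together took a median of 1.73% of the reads in uncrushed, 1.58% in day 2 and 1.72% in day 4 deep wells.

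C1qb had the highest level of the 3. Its FPKM ran from 15.6 to 30689 with a median of 8862 in uncrushed wells, from 13.5 to 19005 with a median of 7380 in day 2 wells and from 6.47 to 14955 with a median of 7675 in day 4 wells. Each group thus held wells over about the same wide range, and the medians lay close together.

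C1qa ran from 3.56 to 7262 FPKM with a median of 2964 in uncrushed wells, from 3.00 to 5085 with a median of 1854 in day 2 wells and from 1.29 to 5241 with a median of 2403 in day 4 wells. C1qc ran from 4.34 to 7110 FPKM with a median of 2056 in uncrushed wells, from 6.17 to 5208 with a median of 2480 in day 2 wells and from 1.82 to 8415 with a median of 3081 in day 4 wells. The groups overlapped over nearly their whole range for both chains. Since the neighbours in these orders of medians overlap, no order of the groups can be read beyond the spread over wells. The deposited length of C1qc, 1931 bases, adds a second transcript to the 1203 bases of its coding transcript. On the coding length the C1qc values would be 1.61 times as high, with a median over all deep wells of 4242 FPKM against 2643 as deposited, which leaves C1qb the highest of the 3.

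**Figure D1:**
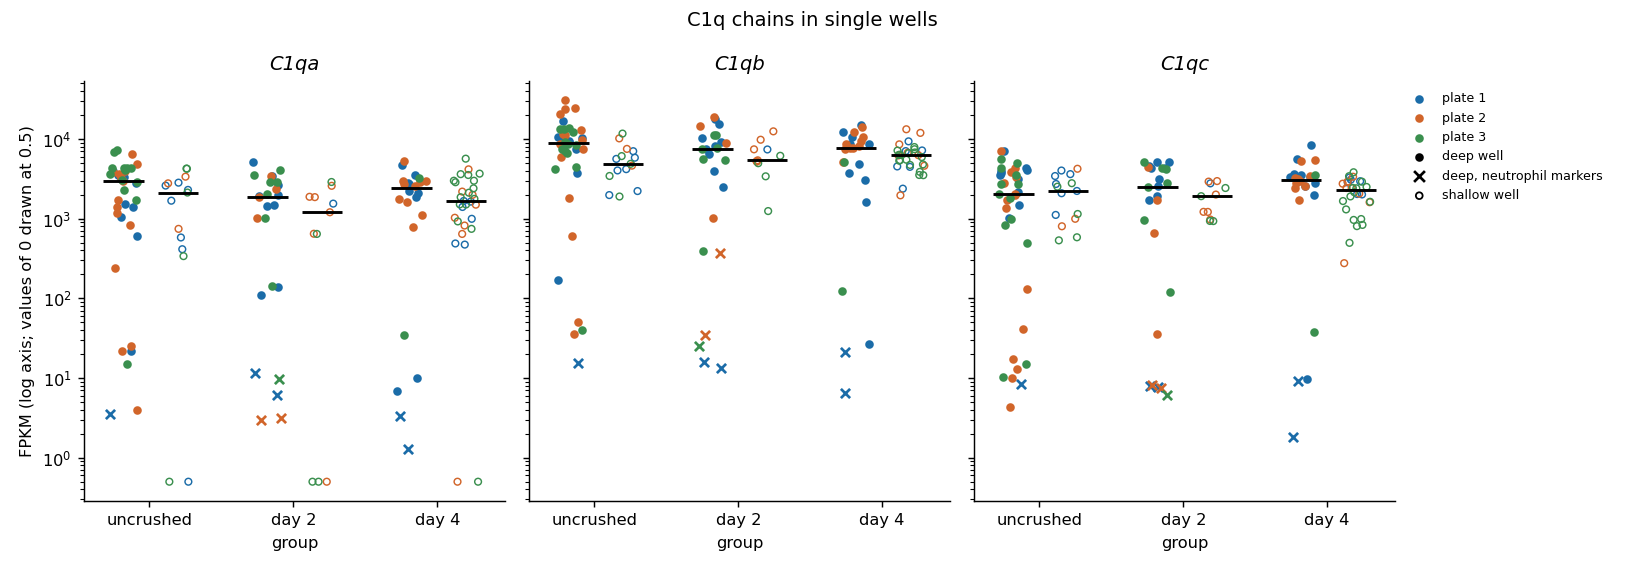
FPKM (log axis) of C1qa, C1qb and C1qc in every well by group; filled points are deep wells, crosses deep wells with at least 3 neutrophil markers and more neutrophil than microglia markers, open points shallow wells, colours plates and bars medians. Most deep wells sit in a narrow band near the median, with a tail of wells 10 or more times lower, while shallow wells of C1qb and C1qc have no such tail.

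The wells fell into a main band and a low tail rather than a single spread. With a line at 10% of each chain's median over all deep wells (226 FPKM for C1qa, 794 for C1qb and 264 for C1qc), few wells stood near the line. The nearest wells below it had 142, 597 and 129 FPKM, and the nearest above it 240, 1027 and 499. The line was chosen after the values were seen.

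All 3 chains lay above their lines in 28 of 39 uncrushed wells (71.8%, exact Clopper-Pearson 95% interval 55.1 to 85.0), 16 of 25 day 2 wells (64%, 42.5 to 82.0) and 19 of 24 day 4 wells (79.2%, 57.8 to 92.9). No chain did so in 2 uncrushed, 6 day 2 and 4 day 4 wells, and 2 of 3 chains did in 3, 3 and 1 wells. A single chain stood above its line in 6 wells, all of them uncrushed (15.4%, 5.86 to 30.5), in 0 of 25 day 2 wells, which allows up to 13.7%, and in 0 of 24 day 4 wells, which allows up to 14.2%. The intervals overlap for each of these shares. Of the 5 day 4 wells short of 3 chains, 4 carried the conflicting day 2 tag, and without the tagged wells all 3 chains lay above their lines in 11 of 12 day 4 wells (91.7%, 61.5 to 99.8).

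**Figure D2:**
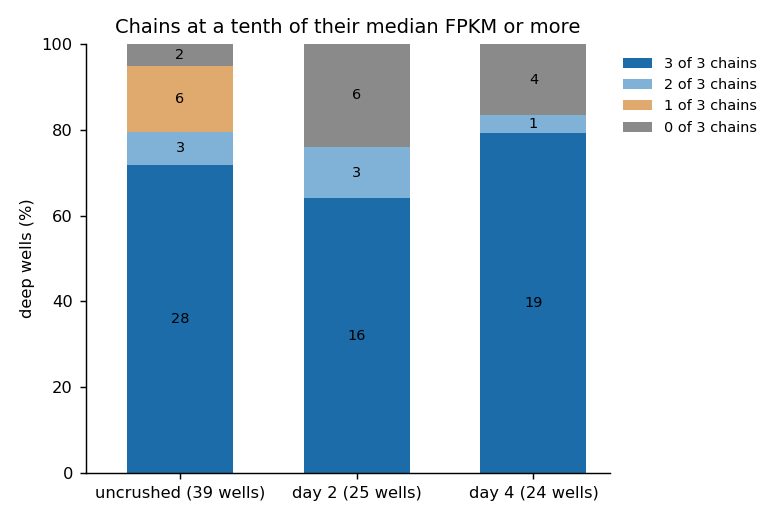
Share of deep wells (%) by how many of the 3 chains reach 10% of their deep-well median FPKM, with well numbers printed in the bars. Wells with a single chain appear in the uncrushed bar, and wells with no chain in all 3 bars.

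Counting reads instead of levels gave shares that depended on how many reads were asked for. At 10 or more reads all 3 chains were found in 31 of 39 uncrushed wells (79.5%, 63.5 to 90.7), 21 of 25 day 2 wells (84%, 63.9 to 95.5) and 19 of 24 day 4 wells (79.2%, 57.8 to 92.9). At 100 or more reads they were found in 28 of 39 (71.8%), 17 of 25 (68%, 46.5 to 85.0) and 19 of 24 (79.2%). C1qb alone reached 10 reads in 39 of 39, 24 of 25 and 23 of 24 wells, C1qa in 34, 21 and 19 and C1qc in 35, 21 and 22. A count of 10 reads in wells this deep includes the low tail, as the next wells show.

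At least 3 neutrophil markers and more neutrophil than microglia markers were found in 8 deep wells, 1 uncrushed, 5 day 2 and 2 day 4. Since C1q is known mainly as a product of macrophages and dendritic cells, these wells are given as a background level. C1qa ran there from 1.29 to 11.5 FPKM (median 3.47), C1qb from 6.47 to 371 (median 18.4) and C1qc from 1.82 to 9.06 (median 7.79). With a median depth of 678863 reads, 6 of 8 reached 10 reads of C1qb (75%, 34.9 to 96.8) and 1 of 8 reached 100, so 10 reads of C1qb did not tell these wells from the rest. All 8 were among the 12 wells with no chain above its line. Among them G5 of day 4 on plate 1 also held 12 of 13 rod markers, beside 6 of 12 neutrophil markers.

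The other 4 wells with no chain above its line had few neutrophil and rod markers, and still held reads of each chain. The well F1 of day 4 on plate 1 had 854388 reads and 5510 genes, more than the median deep well, yet held 10.1 FPKM of C1qa, 26.9 of C1qb and 9.70 of C1qc. It held 4 of 11 microglia markers, 2 of 12 neutrophil markers and 2 of 8 markers of other macrophages or monocytes. The well A6 of uncrushed plate 2 had 530426 reads and 4818 genes, with 21.8, 50.3 and 17.6 FPKM of the chains, or 12, 29 and 18 reads, and 2 microglia markers. The remaining pair, E2 of day 2 on plate 3 and F6 of day 4 on plate 3, had 94801 and 82047 reads and 2 and 0 microglia markers. E2 held 14, 40 and 22 reads of C1qa, C1qb and C1qc, so it passed the count of 10 reads for each.

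Some wells held chains of C1q apart from each other. C1qc was below its line with C1qa and C1qb above theirs in 4 wells, 3 uncrushed and 1 day 2. C1qa alone was below in 3 wells, 2 day 2 and 1 day 4. The day 2 wells among these, D3 and E1 of plate 1, were not among the wells with few foreign markers. D3 held 3 neutrophil markers, and E1 held 6 neutrophil and 12 rod markers. C1qb alone was below in 0 of 88 wells, which allows up to 4.11%. In the well C2 of uncrushed plate 2, C1qb stood at 30689 FPKM and C1qa at 2964, while C1qc was at 4.34, which is 2 reads of 238455.

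The 6 uncrushed wells with a single chain ranged from a wide split to a marginal one. The well C5 of uncrushed plate 2 held 20649 FPKM of C1qb, or 10821 reads, beside 3.99 of C1qa and 12.9 of C1qc. The well B5 of the same plate, with 2347721 reads, 4284 genes and 7 microglia markers, held 1164 FPKM of C1qa beside 35.6 of C1qb and 10.1 of C1qc. The well C6 of uncrushed plate 1 held 3917 FPKM of C1qc beside 22.1 of C1qa and 169 of C1qb. The well B6 of plate 2 held 1790 FPKM of C1qb beside 25.4 of C1qa and 41.1 of C1qc, and C1 of plate 3 held 499 of C1qc beside 15.1 of C1qa and 39.8 of C1qb. The well B4 of plate 2 lay at the line, with 240 FPKM of C1qa from 15 reads beside 597 of C1qb and 129 of C1qc, so all 3 chains were low there. Each chain was thus the one left over in 2 of the 6 wells.

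Wells with chains below their lines also had fewer genes and fewer microglia markers. The median number of genes was 3777 in the 63 wells with 3 chains, 2085 in the 7 wells with 2, 2028.5 in the 6 wells with 1 and 3152 in the 12 wells with none. The median number of microglia markers of 11 was 9, 2, 2 and 1 in the same order. At least 3 neutrophil markers were found in 7, 2, 0 and 8 of them. The part of gene number and marker content in the low chains was not tested.

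The spread narrowed with the number of genes found, among the 67 deep wells with few foreign markers. In the 16 wells with 5000 or more genes, the quartiles were 1958 and 2848 FPKM for C1qa, 7201 and 9429 for C1qb and 2544 and 3506 for C1qc, and 15 of 16 wells had each chain above its line, the exception being the well F1 named above. In the 34 wells with at least 2500 and fewer than 5000 genes, C1qa and C1qb were above their lines in 31 wells each and C1qc in 32. In the 17 wells with fewer than 2500 genes, C1qa was above in 12, C1qb in 13 and C1qc in 8, and the median of C1qc was 129 FPKM. The groups were unevenly spread over these classes, with 2, 7 and 7 uncrushed, day 2 and day 4 wells in the class with most genes and 12, 3 and 2 in the class with fewest.

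**Figure D3:**
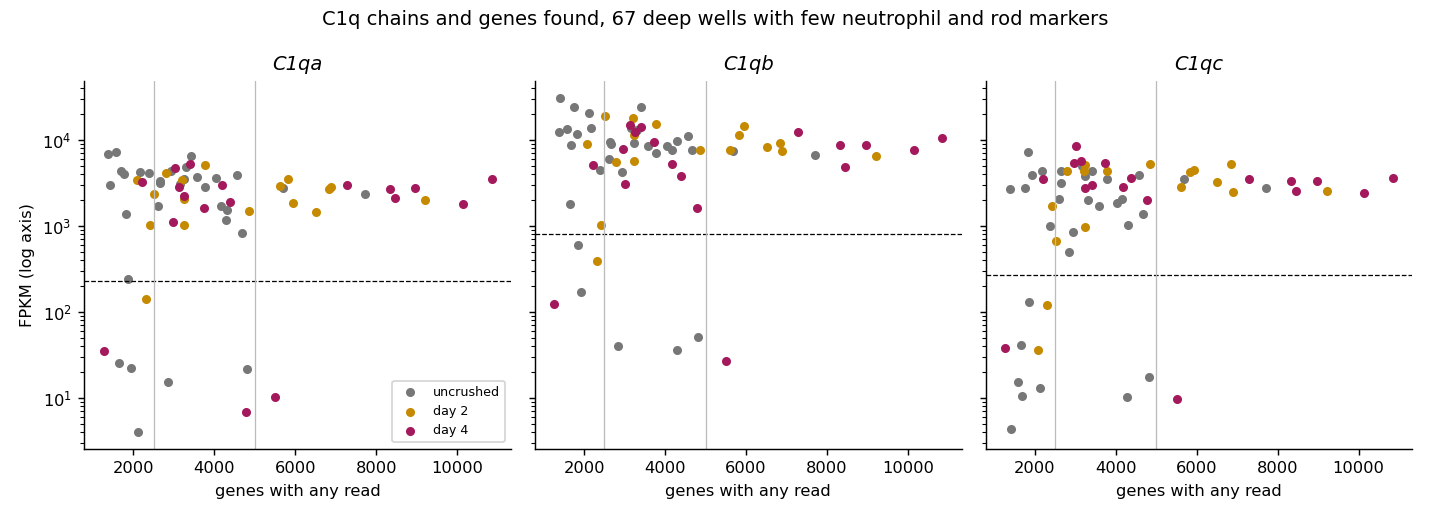
FPKM (log axis) of each chain against the number of genes with any read in the 67 deep wells with few neutrophil and rod markers, coloured by group; the dashed line is 10% of the chain's deep-well median and the grey lines mark 2500 and 5000 genes. Wells below the dashed line gather at low gene numbers, most of all for C1qc, and 1 day 4 well of 5510 genes lies low for all 3 chains.

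Over the 88 deep wells the chains went up and down together. Pearson's r of log2(FPKM + 1) after the group means were removed was 0.830 for C1qa and C1qb, 0.713 for C1qa and C1qc and 0.726 for C1qb and C1qc, and Spearman's rho was 0.704, 0.522 and 0.529. The wells share plates, depth and gene number, so these values are a description. Within groups r was 0.696, 0.481 and 0.439 over 39 uncrushed wells, 0.912, 0.857 and 0.870 over 25 day 2 wells and 0.905, 0.877 and 0.966 over 24 day 4 wells, for the same 3 pairs. The uncrushed values are the lowest, and the single-chain wells are all uncrushed. With few foreign markers r was 0.611, 0.385 and 0.311 in uncrushed wells. It was 0.823, 0.419 and 0.420 in day 2 wells and 0.826, 0.765 and 0.930 in day 4 wells. The pairs with C1qc thus differed less between day 2 and uncrushed wells there. The difference between groups was not tested.

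Within plates the correlation was 0.920, 0.848 and 0.936 over the 34 deep wells of plate 1, 0.575, 0.663 and 0.549 over the 31 of plate 2 and 0.969, 0.524 and 0.568 over the 23 of plate 3. In the 67 wells with few foreign markers it was 0.690, 0.482 and 0.472. In the 63 wells with every chain above its line it was 0.351, 0.274 and 0.304. The correlation was thus lower inside the main band, whose wells were chosen by the chains themselves and so span a narrower range.

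**Figure D4:**
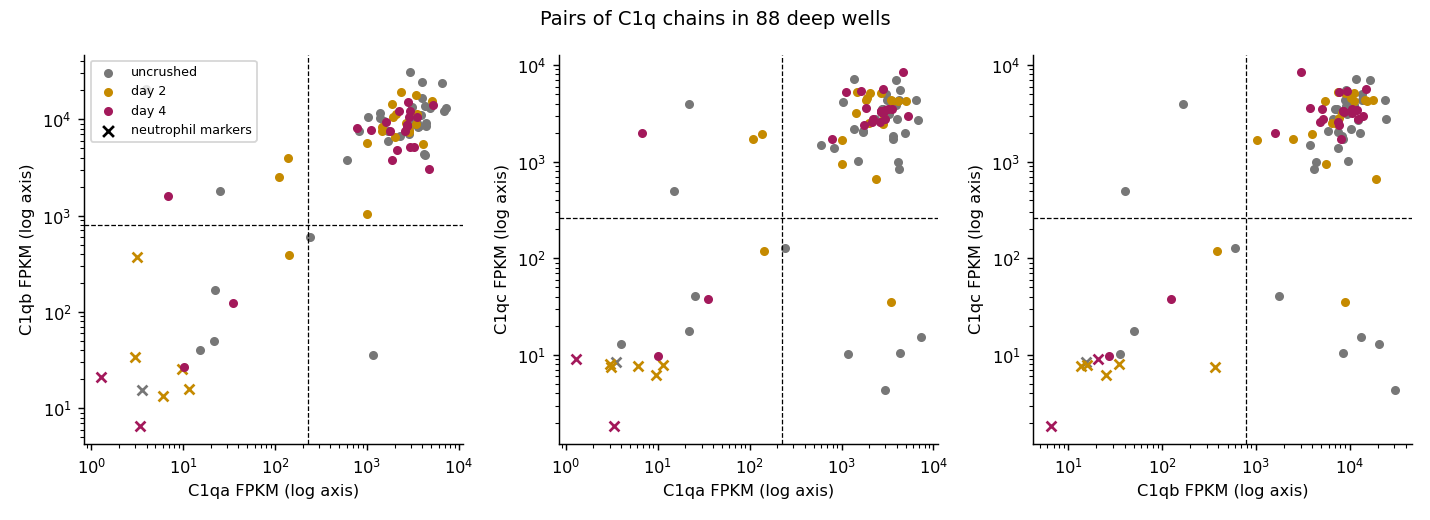
FPKM of each pair of chains (both axes log) in the 88 deep wells, coloured by group. Crosses are the 8 wells with at least 3 neutrophil markers and more neutrophil than microglia markers. Dashed lines stand at 10% of each chain's deep-well median. Most wells lie in the upper right corner, the neutrophil-marker wells in the lower left, and the single-chain and 2-chain wells off the diagonal.

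The chains kept the same order in most wells. In the 63 wells with all 3 chains, C1qb was above C1qa in 61 wells, with a median ratio of 3.21 and group medians of 2.91 in uncrushed, 4.26 in day 2 and 3.18 in day 4 wells. The median ratio of C1qc to C1qa was 1.20 and that of C1qb to C1qc 2.72, or 1.93 and 1.70 on the coding length of C1qc. The SD of the log2 ratio over wells was 0.84 for C1qb to C1qa, 0.93 for C1qc to C1qa and 0.91 for C1qb to C1qc. In the 16 wells with most genes these SDs were 0.46, 0.41 and 0.27, so the chains varied less against each other there, the low well F1 included.

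At day 4 the chains differed from uncrushed retina by less than 1 on the log2 scale, and the direction depended on the plate and on the wells with the conflicting tag. Mean log2(FPKM + 1) of C1qb was 11.49 ± 3.21 in 24 day 4 wells against 12.13 ± 2.77 in 39 uncrushed wells (SD over wells), a difference of -0.64. C1qa averaged 9.53 ± 3.53 in day 4 wells and 10.16 ± 2.98 in uncrushed wells, a difference of -0.64, and C1qc 10.32 ± 3.25 and 9.68 ± 3.25, a difference of 0.63. By plate, day 4 minus uncrushed was -1.16, 1.46 and -2.87 for C1qa on plates 1, 2 and 3, -1.33, 0.996 and -2.81 for C1qb and -1.28, 2.99 and -1.43 for C1qc. Plate 2 thus went the other way from plates 1 and 3 for all 3 chains, and plate 3 held 2 deep day 4 wells. Without the tagged wells, which are the day 4 wells of plate 1 (12 of 18 deep), day 4 minus uncrushed was 0.47 for C1qa, 0.39 for C1qb and 1.42 for C1qc. The signs of C1qa and C1qb thus turned, and C1qc passed 1, as did 49.4% of 4498 genes in that direction.

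On plate 2 the day 4 wells stood out by their evenness. The 10 deep day 4 wells ran from 5165 to 14053 FPKM of C1qb, 780 to 5241 of C1qa and 1733 to 5397 of C1qc, with an SD on the log2 scale of 0.41, 0.80 and 0.49. The 15 deep uncrushed wells of that plate ran from 35.6 to 30689 for C1qb, 3.99 to 6482 for C1qa and 4.34 to 7110 for C1qc, with an SD of 3.08, 3.25 and 3.75. The plate 2 medians were 8426 in day 4 and 9655 in uncrushed wells for C1qb, 2650 and 1708 for C1qa and 3081 and 1703 for C1qc. For C1qb the medians are thus in the opposite order to the means. Genes found ran from 2972 to 10159 in the deep day 4 wells of plate 2. In its deep uncrushed wells they ran from 1415 to 4818. The part of gene number in the evenness was not tested.

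Of 5488 genes found at 10 or more reads in at least 10% of these wells, 46% differed by 1 or more on the log2 scale between day 4 and uncrushed wells, with 44.9% higher, 1.11% lower and a median difference of 0.89. Of the 3 chains 0 reached a difference of 1, where most genes were higher in the day 4 wells that held more genes. In the wells with few foreign markers the differences were -0.19 for C1qa, -0.18 for C1qb and 1.47 for C1qc, with 39.2% of 5524 genes higher by 1 or more.

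At day 2 the means of the chains stood lower than in uncrushed wells, on every plate. Mean log2(FPKM + 1) was 8.99 ± 3.50 in 25 day 2 wells against 10.16 ± 2.98 in 39 uncrushed wells for C1qa, a difference of -1.17, with -0.61, -1.65 and -1.49 on plates 1, 2 and 3. C1qb had 11.20 ± 3.36 in day 2 and 12.13 ± 2.77 in uncrushed wells, a difference of -0.93 (-0.49, -1.29 and -1.09). C1qc had 9.37 ± 3.62 and 9.68 ± 3.25, a difference of -0.31 (-0.64, -1.35 and -0.10). For C1qc the order turned with the summary, since its median was 2480 FPKM in day 2 and 2056 in uncrushed wells and the difference of means was 0.13 after scaling by the median log ratio. C1qa was the 1 chain past -1, among the 2.26% of 4158 genes that were lower by 1 or more, where 26.7% were higher, 29% differed in either direction and the median difference was 0.48.

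The lower values at day 2 went with the neutrophil-marker wells, of which day 2 held 5 of 8. Without those 8 wells, day 2 minus uncrushed was 0.17 for C1qa, 0.34 for C1qb and 1.09 for C1qc. In the wells with few foreign markers, 17 from day 2 and 32 uncrushed, it was 0.67, 0.58 and 1.39, where 35.8% of 4599 genes were higher by 1 or more. The sign of the mean difference at day 2 thus turned when these wells were left out. It did not turn on plate 3 for C1qa (-0.52) and C1qb (-0.08) in the wells with few foreign markers. The medians there were 2345 FPKM in day 2 and 3016 in uncrushed wells for C1qa, 8219 and 8543 for C1qb and 3181 and 2012 for C1qc, so day 2 stayed lower by the median for C1qa and C1qb.

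Day 4 wells had higher means than day 2 wells by 0.54 for C1qa, 0.29 for C1qb and 0.94 for C1qc. On plate 2 the differences were 3.11, 2.29 and 4.34, and on plates 1 and 3 they were negative. Of 7622 genes 21.1% differed by 1 or more in either direction and 0 of the 3 chains did. Without the tagged wells the differences were 1.65 for C1qa, 1.32 for C1qb and 1.73 for C1qc, so 3 of 3 passed 1, where 24.9% of 6987 genes were higher by 1 or more. With those wells moved to day 2 they were 1.83, 1.57 and 1.67. In the wells with few foreign markers, tagged ones included, they were -0.86, -0.77 and 0.08.

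**Figure D5:**
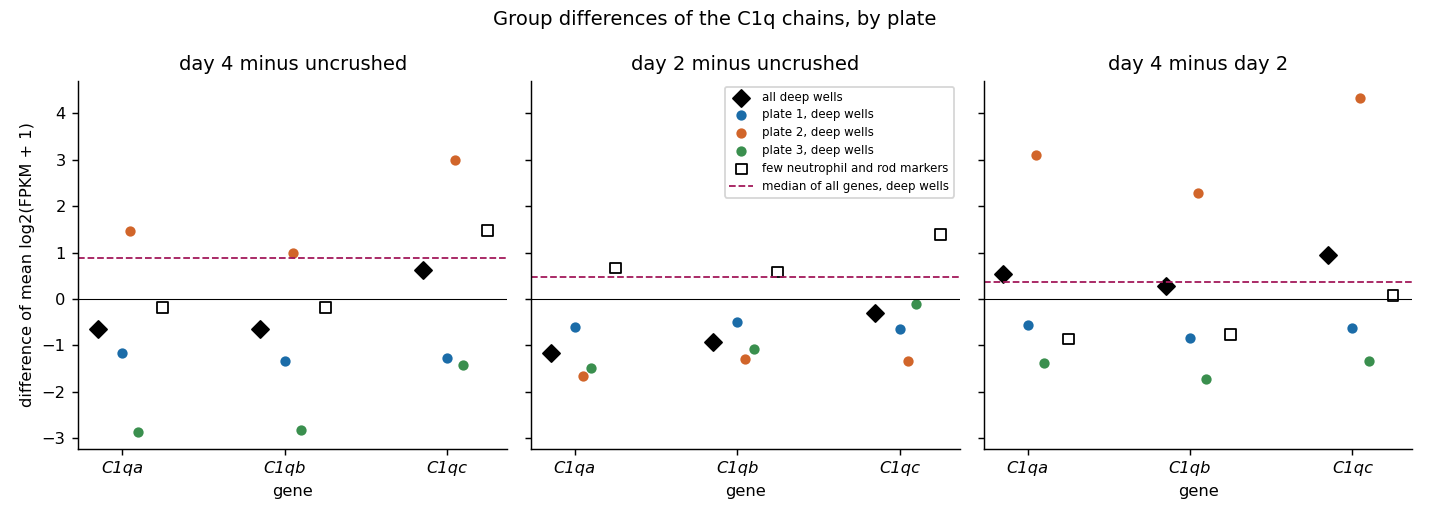
Difference of mean log2(FPKM + 1) for each chain in 3 pairs of groups; diamonds are all deep wells, coloured points single plates, open squares the wells with few neutrophil and rod markers, and the dashed line the median of all genes in deep wells. Plate 2 lies above 0 in both day 4 comparisons while plates 1 and 3 lie below, and at day 2 the squares lie above 0 with all plates below it.

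Shallow wells varied less than deep wells in C1qb and C1qc on every plate, and in C1qa on plate 1 only. C1qb had a median of 5066 FPKM in the 14 shallow wells of plate 1, 6715 in the 17 of plate 2 and 5420 in the 25 of plate 3, against 6503, 8819 and 7189 when the reads of that plate's deep wells were pooled. The SD on the log2 scale was 0.70, 0.68 and 0.67 in shallow wells and 3.57, 2.697 and 2.67 in deep wells. C1qc had medians of 2806, 2059 and 1661 FPKM in shallow wells against 2721, 2221 and 2658 in the pooled deep wells, with an SD of 0.47, 0.98 and 0.87 in shallow wells and 3.45, 3.47 and 3.06 in deep wells. C1qa, at 0 in some shallow wells of each plate, had an SD of 2.89, 3.61 and 4.23 in shallow wells and 3.66, 3.16 and 2.75 in deep wells. These values rest on a median of 13, 15 and 11 reads of C1qb, 3, 4 and 4 of C1qa and 11.5, 7 and 5 of C1qc. No shallow well lay in the low tail of C1qb, whose lowest shallow value was 1244 FPKM. Among the 88 deep wells C1qb was below its line in the 12 with no chain above its line and in some single-chain wells. C1qb and C1qc reached FPKM 1 in 144 of 144 wells, and C1qa in 52 of 54 uncrushed, 33 of 36 day 2 and 52 of 54 day 4 wells. Over all wells the day 4 minus uncrushed differences were -0.12 for C1qa, -0.11 for C1qb and 0.63 for C1qc. What these wells hold was not tested, so levels over all wells are given as a description of the libraries only.

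Among 681 genes found at 10 or more reads in at least 50% of the deep wells, the values of Lgmn and Cst3 were among those that followed the 3 chains most closely. The mean r with the 3 chains over 88 wells was 0.679 for Lgmn, a lysosomal protease, and 0.663 for Cst3, which encodes cystatin C. It was 0.625 for the cathepsin gene Ctss, 0.611 for the tetraspanin gene Cd81, 0.597 for the elongation factor gene Eef1a1 and 0.577 for Ly86, which encodes a partner of the receptor RP105. Aif1, the gene of the Iba1 protein, had 0.573, the cathepsin gene Ctsz 0.548 and Csf1r, the receptor that microglia need to survive, 0.534. R74862 at 0.573 overlaps Cd81 on the genome, so its reads may not be separable from those of its neighbour. The median gene had a mean r of 0.299, and 10% of genes were above 0.468.

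The same genes were less close in the 67 wells with few foreign markers. The median gene had 0.153 there, and 10% of genes were above 0.313. Lgmn had 0.482, Cst3 0.417, Cd81 0.372, R74862 0.370, Aif1 0.350 and Csf1r 0.325. Eef1a1 at 0.310, Ly86 at 0.309, Ctsz at 0.286 and Ctss at 0.283 were below 0.313. Laptm5, a lysosomal membrane gene, had 0.487 at rank 5 of 639, chains included. Of the other chains, C1qb ranked first for C1qa and C1qa first for C1qb, among 639 genes. For C1qc, C1qa ranked 37 and C1qb 45 there, so other genes followed C1qc more closely than its partner chains did. The lowest mean r over all deep wells belonged to Malat1, a nuclear long noncoding RNA, at -0.328. With predicted, ribosomal protein and pseudogene symbols left out, it was followed by Rac2, a GTPase gene of blood cells, at -0.280, H2-Q10 at -0.275, Rn7s1 and Rn7s2 at -0.193 each and the lactate dehydrogenase gene Ldha at -0.167. In the wells with few foreign markers Malat1 had -0.042, H2-Q10 0.385, Rn7s1 -0.280 and Rn7s2 -0.279, and Rac2 and Ldha had no value. H2-Q10 has near-identical relatives among the H2-Q genes. Rn7s1 and Rn7s2 are near-identical copies of 1 RNA.

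The partners of C1q in the classical pathway were nearly absent from these wells. C1ra and C1rb, which encode the protease C1r, reached 10 reads in 0 uncrushed wells, 0 day 2 wells and 1 of 24 day 4 wells each, and C1s1, C1s2 and C2 were at 0 in each of the 88 deep wells, which allows a share of up to 4.11%. C4b reached 10 reads in 1 of 39 uncrushed, 3 of 25 day 2 and 5 of 24 day 4 wells and C4a in 0, 3 and 3, though the 2 genes are near-identical and may share reads. C3, the central component, reached 10 reads in 0 uncrushed, 1 day 2 and 2 day 4 wells. None of the 7 classical, 6 alternative pathway, 6 terminal and 9 lectin pathway genes passed the filter for comparisons with uncrushed wells, and none of the 18 other genes with a C1q domain did.

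Receptors for the products of complement were present. Of 8 receptor genes, 5 passed the filter and 4 were higher by 1 or more at day 4 against 0 lower, beside 44.9% of all genes. Itgam, the CR3 subunit that binds C3 fragments, was found in 14 of 24 day 4 wells and 11 of 39 uncrushed wells with a difference of 1.45, and in 17 of 25 day 2 wells with a difference of 2.52. Its partner Itgb2 differed by 1.77 at day 4, the C3a receptor gene C3ar1 by 1.73 and the C5a receptor gene C5ar1 by 2.56. Itgam, Itgb2 and C5ar1 are also made by neutrophils, whose markers were more frequent after crush. In the wells with few foreign markers the 4 differences were 2.01, 2.04, 1.53 and 1.81, where 39.2% of 5524 genes were higher by 1 or more. Without the tagged wells 3 of 5 were higher by 1 or more, beside 49.4% of 4498 genes, and Itgam stood at 0.72.

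Genes of proteins known to bind C1q divided in the same comparison. Of 7, 4 passed the filter and 2 were higher by 1 or more at day 4, Calr (calreticulin, a chaperone and C1q ligand) by 3.22 and C1qbp (a mitochondrial protein that binds C1q heads) by 2.66, a share close to the 44.9% of all genes. The inhibitory receptor gene Lair1 differed by 0.89 at day 4 (1.54 without the tagged wells) and by -1.15 at day 2 (-0.25 in the wells with few foreign markers), and the endocytic receptor gene Lrp1 by -0.03 at day 4. Of 9 regulators 2 passed, among them Cr1l (the membrane regulator Crry), which differed by 0.51.

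Enzymes that modify collagen-like chains and transcription factors of macrophages were found in part of the wells. Of 9 modifying enzymes 5 passed, and 3 were higher by 1 or more at day 4: P4hb by 2.48 and P4ha1 by 1.67, subunits of prolyl hydroxylase, and the lysyl hydroxylase gene Plod1 by 1.43. The galactosyltransferase gene Colgalt1 differed by 0.67. Of 9 transcription factor genes 8 passed and 3 were higher by 1 or more, among them Spi1 (PU.1) at 2.74 and Cebpb at 1.54, and Irf8 stood at 0.97. These counts of 3 of 5 and 3 of 8 stand beside 44.9% of all genes, and the list medians of 1.43 and 0.96 beside 0.89. Without the tagged wells 4 of 5 enzymes and 4 of 7 factors were higher by 1 or more, beside 49.4% of all genes, with Colgalt1 at 1.11 and Irf8 at 1.30. The chains themselves had 0 of 3 in that direction with the tagged wells and 1 of 3 without them.

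The genes of the series title were found mostly in wells with all 3 chains. All 3 chains were above their lines in 23 of 23 deep wells with 10 or more reads of Gpr84, a receptor for medium-chain fatty acids, in 14 of 14 with the cytokine gene Tnf and in 24 of 26 with the cytokine gene Il1a, beside 63 of 88 deep wells in all. These wells had more genes than the rest, with a median of 6609 for Gpr84, 8020 for Tnf and 6558.5 for Il1a against 3654 over all deep wells. In the Gpr84 wells C1qb ran from 3741 to 12311 FPKM with a median of 8219.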

How the data were processed

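Per the labels' protocols, RNA of single sorted cells was turned into cDNA, amplified and tagmented with the Nextera XT kit. The submitters' processing notes name STAR 2.7.2b, featureCounts 1.6.1, Trim Galore 0.4.4, cutadapt 1.16 and Trimmomatic 0.36, and the builds GRCm38.p6 and mm10. The authors deposited FPKM for 55364 genes with the length of each gene. FPKM times length in kilobases summed to 1000000 in each well, and the most frequent value above 0 was taken as 1 read. Of recovered values under 100 reads 40.9% were whole within 0.01, so reads are estimates.

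Deep wells held 50000 or more reads. Differences are of mean log2(FPKM + 1), called at 1, over genes at 10 or more reads in at least 10% of the wells compared, with no test because each group is 1 sample and wells are not replicates. A pseudocount understates differences of low genes. Differences, correlations and depth recovery were tested on simulated data. Depth recovery was tested with whole reads only, not with fractions of reads. Thinning was checked by its totals in deposited wells. Named were the chains, the 12 genes most and 6 least like them in mean r (at 10 reads in 50% of deep wells, leaving out Gm, Rik, mitochondrial, ribosomal protein and pseudogene symbols), up to 4 members a list with the largest day 4 minus uncrushed difference at 10 reads in 25% of the wells of a group, and Gpr84, Tnf and Il1a. Some genes that this rule names are not reported here. Single wells and Laptm5 were named after their values were seen. Members and lists were chosen with earlier results of these data known. Promoters came from RefSeq and coding sequences from GENCODE. Doublets were not called. Alternatives covered pseudocount, depth, plates, the 18 conflicting wells, scaling, averaging, detection and foreign markers. Intervals came from scipy 1.17.1, figures from matplotlib 3.10.9 and the rest from pandas 2.3.3 and numpy 2.4.6 under Python 3.11.15.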

Additional observations from a re-analysis of the deposited data

How the results depend on the processing

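Differences of the chains between groups were recomputed 126 times, and 117 moved by less than the SD over the 3 plates. That SD was 1.92 to 3.09 in the day 4 comparisons, so it is a wide yardstick, and 24 of the 126 values, 18 of the 117 included, had the other sign. Day 4 minus uncrushed in C1qa, -0.64, was 0.47 without the wells with a conflicting tag, 0.24 without plate 1 and 0.02 without plate 3, and in C1qb, -0.64, it was 0.39 and 0.26 in the first pair of settings. C1qc, 0.63, was -0.96 without plate 2. Day 4 minus day 2 without plate 2 was -0.90 for C1qa, -0.98 for C1qb and -0.64 for C1qc, against 0.54, 0.29 and 0.94. Day 2 minus uncrushed in C1qc, -0.31, was 0.27 as a difference of medians and 0.13 with scaling by the median log ratio. Day 2 minus uncrushed in C1qa, -1.17 over all deep wells, turned to 0.67 in wells with few neutrophil and rod markers and to 0.17 without the 8 neutrophil-marker wells. In the same settings C1qb stood at 0.58 and 0.34, against -0.93, and C1qc at 1.39 and 1.09, against -0.31. C1qb at day 2 was -0.46 with scaling by the median log ratio of 81 genes, -0.42 as a log2 ratio of mean FPKM and -0.26 as a difference of medians. All 3 chains were found in 100% of uncrushed, day 2 and day 4 deep wells at 1 read, in 96.3% of all uncrushed and all day 4 wells at FPKM 1, and in 100% of day 2 wells both with few foreign markers and without the neutrophil-marker wells.

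For C1qa and C1qb the correlation was 0.351 in wells with every chain above 10% of its median and 0.306 in the 15 such wells with 5000 or more genes. C1qa and C1qc had 0.482 with few foreign markers, 0.511 over all wells, 0.522 by Spearman and 0.474 without the neutrophil-marker wells. With every chain above 10% of its median they had 0.274. C1qb and C1qc had 0.472 with few foreign markers, 0.485 without the neutrophil-marker wells and 0.304 with every chain above 10% of its median. In the 16 wells with 5000 or more genes, the pairs with C1qc had 0.981 with C1qa and 0.992 with C1qb. Without the day 4 well F1 of plate 1, which lies low for all 3 chains, C1qa and C1qc had 0.3596. The value of C1qb and C1qc without that well is not given, so the lower values stand for the pairs with C1qa only.

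The number of genes that differed by 1 or more moved with the pseudocount, and was 843 at a pseudocount of 10 against 2524 for day 4 minus uncrushed, 344 against 1206 for day 2 minus uncrushed and 359 against 1608 for day 4 minus day 2. At a pseudocount of 0.1 it was 1979 for day 2 minus uncrushed and 3225 for day 4 minus day 2. Over all wells it was 942, 653 and 564. As a log2 ratio of mean FPKM it was 1969 and 3681 for the last pair of comparisons, as a difference of medians 1597 for day 4 minus uncrushed, and without plate 1 it was 2554 for day 4 minus day 2. The total without mitochondrial genes was not run, because the table lists 0 such genes. The wells with many genes, the wells without neutrophil markers, the shares, correlations and lists without the tagged wells and the line at 10% of the median were chosen after seeing the data. The causes were not tested. No paired analysis was possible because no test was run and replicate numbers only name the wells in accession order. In a shallow well a chain's level rests on few reads, so low levels cannot be told from 0 there. C1qb and C1qc each had at least 1 read in 56 of 56 shallow wells, and C1qa in 49.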
